A study of Mus musculus with 20 samples.

Results

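The mitochondrial ribosomal protein genes were followed across 5 groups of mouse kidneys. They were taken as every gene name on the array made of Mrpl or Mrps and a number, the symbols for proteins of the large and the small subunit, which gave 75 genes of 27827 gene names. These genes were measured by 124 probes, with 1 probe for 42 genes and up to 4 for the other 33. All 75 symbols are current in the mouse reference. The rule used the name only and no measured value. In 3 of them name and role differ, since Mrps30 and Mrps18a encode proteins that sit in the large subunit, and Mrps36 encodes a component of the α-ketoglutarate dehydrogenase complex of the citric acid cycle. By known position, 29 large subunit proteins have a bacterial counterpart and 19 are specific to mitochondria, and in the small subunit these numbers are 16 and 10, with Mrps36 in neither subunit.

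The mitochondrial ribosome translates the few mRNAs that the mitochondrial genome encodes, all of them for inner membrane proteins of the respiratory chain and the ATP synthase. Its RNAs come from mitochondrial DNA, while all of its proteins are encoded in the nucleus, made in the cytosol and imported. Some of these proteins have a counterpart in the ribosome of bacteria, and others are specific to mitochondria. The proximal tubule of the kidney is rich in mitochondria and depends on oxidative phosphorylation, and its mitochondria are damaged early in ischemia.

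The kidneys came from male C57BL/6 mice of 8 to 12 weeks, and each group was represented by 4 arrays. For Control mice no ischemia and no hemin are recorded, and whether they had sham surgery is not stated. IRI (ischemia/reperfusion injury) mice had both renal pedicles clamped for 45 min and were examined after 6 h of reperfusion. IRI+Hemin mice received hemin, an inducer of heme oxygenase 1, at 25 mg/kg in the abdomen 24 h before the same surgery. IPC+IRI mice had ischemic pre-conditioning, a clamp of 15 min, 7 days before the same surgery, and Hemin mice received the drug without surgery. No group is labelled as sham-operated or vehicle-injected. Clamping, anesthesia and laparotomy therefore cannot be told apart in IRI vs Control, nor hemin and injection in Hemin vs Control. The labels number the replicates without stating that each is a separate animal, and the p-values measure the spread between these samples, which may be technical.

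The head-to-head pair Mrpl46 and Mrps11 and 4 further promoters are shown because these genes have values in the comparisons that follow, and because binding sites for nuclear respiratory factor 1 (NRF1) and ETS factors are known from many nuclear genes for mitochondrial proteins. A promoter window was given for 66 of the 75 genes by RefSeq on build GRCm38.p6, and the 250 bases before each start were searched on both strands. The NRF1 letters, GCGCA, any base and then GCGC, were found before 9 of the 66 genes (13.6%) and before 4.23% of 27025 genes. The letters CCGGAAG, of the ETS type, were found before 17 of the 66 genes (25.8%) and before 7.83% of all genes, and AANATGGCG, of the YY1 type, before 2 (3.03%) and 1.29%. A match describes the letters only, and motifs of different types did not overlap in the windows printed. Capitals mark the matches, and each window is written 5′ to 3′ on the strand of its gene.
Between Mrpl46 and Mrps11, chr7:78783090-78783130 (+ strand): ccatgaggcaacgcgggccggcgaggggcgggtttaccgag
Mrpl44, chr1:79775768-79776017 (+ strand): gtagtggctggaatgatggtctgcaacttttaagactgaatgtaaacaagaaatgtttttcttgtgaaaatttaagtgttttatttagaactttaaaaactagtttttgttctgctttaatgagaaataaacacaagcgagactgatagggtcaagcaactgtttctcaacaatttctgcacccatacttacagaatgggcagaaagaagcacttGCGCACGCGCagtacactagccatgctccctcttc
Mrps22, chr9:98601680-98601929 (- strand): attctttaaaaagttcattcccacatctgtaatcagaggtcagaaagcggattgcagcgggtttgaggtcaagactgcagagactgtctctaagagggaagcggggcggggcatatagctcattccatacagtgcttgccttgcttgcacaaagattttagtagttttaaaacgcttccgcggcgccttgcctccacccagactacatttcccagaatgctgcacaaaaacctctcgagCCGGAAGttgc
Mrpl53, chr6:83108858-83109107 (+ strand): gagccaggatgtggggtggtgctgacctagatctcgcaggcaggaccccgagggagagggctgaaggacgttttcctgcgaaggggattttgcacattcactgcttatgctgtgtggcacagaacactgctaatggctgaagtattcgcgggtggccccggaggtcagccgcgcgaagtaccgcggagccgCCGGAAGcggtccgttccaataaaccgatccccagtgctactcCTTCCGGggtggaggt
Mrpl17, chr7:105811088-105811337 (- strand): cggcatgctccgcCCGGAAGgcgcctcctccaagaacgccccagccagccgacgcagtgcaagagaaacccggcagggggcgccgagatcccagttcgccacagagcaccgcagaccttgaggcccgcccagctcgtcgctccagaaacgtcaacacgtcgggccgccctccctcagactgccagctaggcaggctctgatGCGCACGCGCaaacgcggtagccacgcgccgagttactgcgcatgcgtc
The first of these lines holds all 41 bases between the starts of Mrpl46 and Mrps11, which are transcribed away from each other from starts 42 bases apart. Of the 66 genes with a window 25 (37.9%) had another gene starting head to head within 1000 bases, where 12.2% of 27025 genes did. Of the genes with the ETS letters 11 of 17 were higher in Hemin vs Control, with a median log2 change of 0.40, against 25 of 49 without them, with a median of 0.35. With the NRF1 letters 2 of 9 were higher, with a median of 0.16, against 34 of 57 without them, with a median of 0.40. Leaving out replicate 2 of the Control group, which stood apart as described further on, these counts were 11 of 17 and 34 of 49 for ETS and 3 of 9 and 42 of 57 for NRF1. These shares were not tested.

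Expression is given as log2 of the processed intensity relative to the 75th percentile of the same array, so that 0 is the 75th percentile, and several probes of a gene were averaged on the linear scale. A gene is called higher or lower where the Benjamini-Hochberg adjusted p of the limma fit across all tested genes was under 0.05, and "rose" and "fell" are used of such genes only. All 75 genes had a probe well above background on all 20 arrays and were tested in every comparison, so no low-value filter chose among them. No member probe was saturated. Of the 124 probes 115 were well above background on all arrays and 3, one each of Mrpl33, Mrpl41 and Mrpl52, on none.

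The tissue carried its label, since 12 of 12 proximal tubule markers were well above background on all arrays. Summed leukocyte markers ran from 0.86 to 1.15 in Control and 0.93 to 1.56 in Hemin against 2.36 to 3.33 in IRI, 1.99 to 3.55 in IRI+Hemin and 2.94 to 4.42 in IPC+IRI, and these sums were thus higher in all injured groups. Single markers differed. Leaving out replicate 2 of the Control group, 3 of 9 leukocyte markers were higher and 1 lower in IRI vs Control, with a median change of 0.04. In IPC+IRI vs Control 4 were higher and 2 lower, with a median of 0.65. The proximal tubule sum ran from 9.44 to 9.64 in Control, 9.39 to 9.47 in Hemin, 9.12 to 9.63 in IRI and 9.18 to 9.5 in IPC+IRI, and the IRI+Hemin arrays at 8.94 to 9.32 lay below all Control and Hemin arrays. In whole tissue, fewer cells of a type and less RNA per cell cannot be told apart, and the part of cell composition in the results was not tested. The 75th percentile intensity ran from 147 on Control replicate 2 to 358 on IRI+Hemin replicate 3. The 4 arrays of a group shared 1 slide and no slide held a second group, which means that slide effects and group effects cannot be told apart. The scan times put Control and IRI on day 1, IRI+Hemin on day 2, and IPC+IRI and Hemin on day 3. Only IRI vs Control and IPC+IRI vs Hemin therefore compare groups scanned on the same day.

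For the mitochondrial ribosomal proteins, replicate 2 of the Control group differed from its 3 companions. It lay above all 3 in 59 of the 75 genes and below all 3 in 7, where 43.0% and 28.2% of all genes did so. Its median difference from the mean of the other 3 was 0.37 for the 75 genes and 0.09 for all genes. The median SD among Control arrays was 0.20 with this array and 0.06 without it. Mrps14, uS14 of the small subunit head, is the clearest case: the Control arrays read 1.51, 2.40, 1.53 and 1.49, with an SD of 0.44 that fell to 0.02 without replicate 2. Mrps30 varied least, at 1.75, 1.78, 1.69 and 1.73. The array also stood apart outside these genes. Its sum over the 3 adipocyte markers on the array, 1 of them well above background on all 20 arrays, was 6.47, against 1.92 to 2.02 on the other Control arrays, 2.86 to 6.77 in IRI, 4.09 to 5.92 in IRI+Hemin, 2.25 to 5.48 in IPC+IRI and 2.54 to 4.70 in Hemin, and the part of this in the results was not tested. Lars2, the mitochondrial leucyl-tRNA synthetase described further on, read 8.98 on it and 3.95 to 4.01 on the other 3. Whether this array carries its right label or was handled with the later arrays was not tested, and each comparison with Control, and each correlation with this array given further on, depends on that label. The main counts of called genes in comparisons with Control are given with and without this array. Counts from refits that leave out an array or change the processing stand mostly without the share of all genes called in the same refit. They show how far the counts move and are not results about the members alone.

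**Figure D1:**
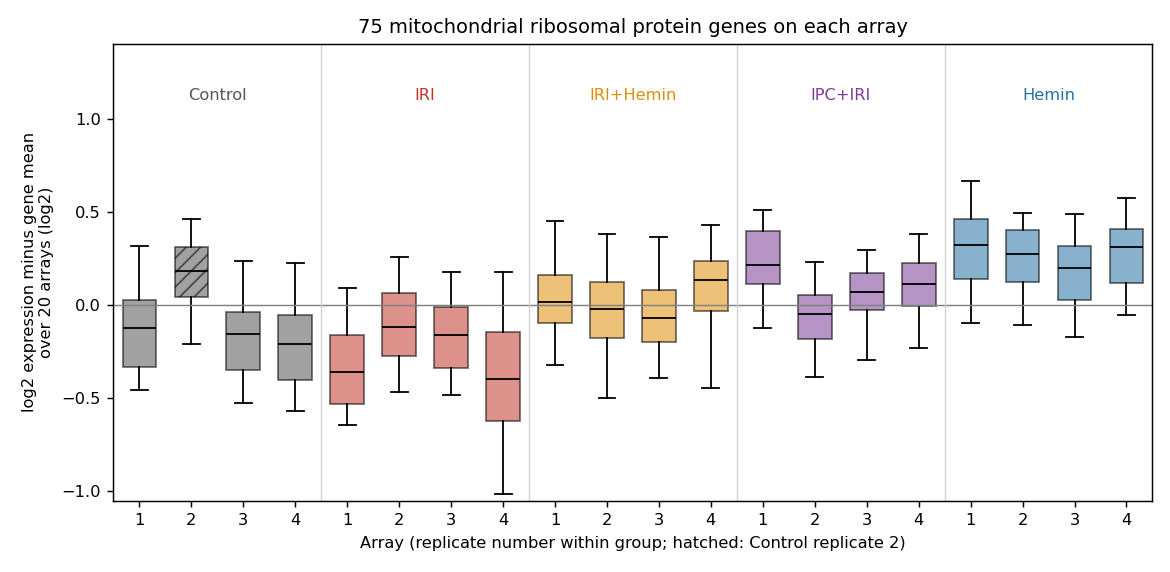
Boxes show, for each of the 20 arrays, the log2 expression of the 75 genes minus each gene's mean over all arrays (line: median, box: quartiles, whiskers: percentiles 5 to 95). The medians of IRI run from -0.40 to -0.12 and those of Hemin from 0.20 to 0.32, and Control replicate 2 (hatched, 0.18) lies above the other Control arrays (-0.21 to -0.13).

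Across the 5 groups the order was similar for many members. IRI had the lowest group mean in 50 of the 75 genes and Hemin the highest in 50, where 32.8% of all genes were lowest in IRI and 28.8% highest in Hemin. Control was lowest in 9 and highest in 6, IRI+Hemin in 10 and 8, IPC+IRI in 5 and 7. Without Control replicate 2 in its mean, IRI was lowest in 36 and Control in 23, against 30.5% and 20.9% of all genes, and Hemin was again highest in 50. Against the mean of the other 3 Control arrays the medians of the IRI arrays were -0.13, 0.04, 0.02 and -0.16, with 57, 30, 34 and 55 genes below it. Replicates were closest in the Hemin group, with a median SD of 0.084 for these genes, against 0.15 in IRI, IRI+Hemin and IPC+IRI. Over all genes Hemin was likewise the closest, at 0.15 against 0.23 to 0.24 in the other groups. Changes were small. Of the called changes 1 in IRI vs Control was a fall of over 2-fold, 2 in IRI+Hemin vs IRI were rises and 1 a fall of that size, and 1 in Hemin vs Control was a rise.

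**Figure D2:**
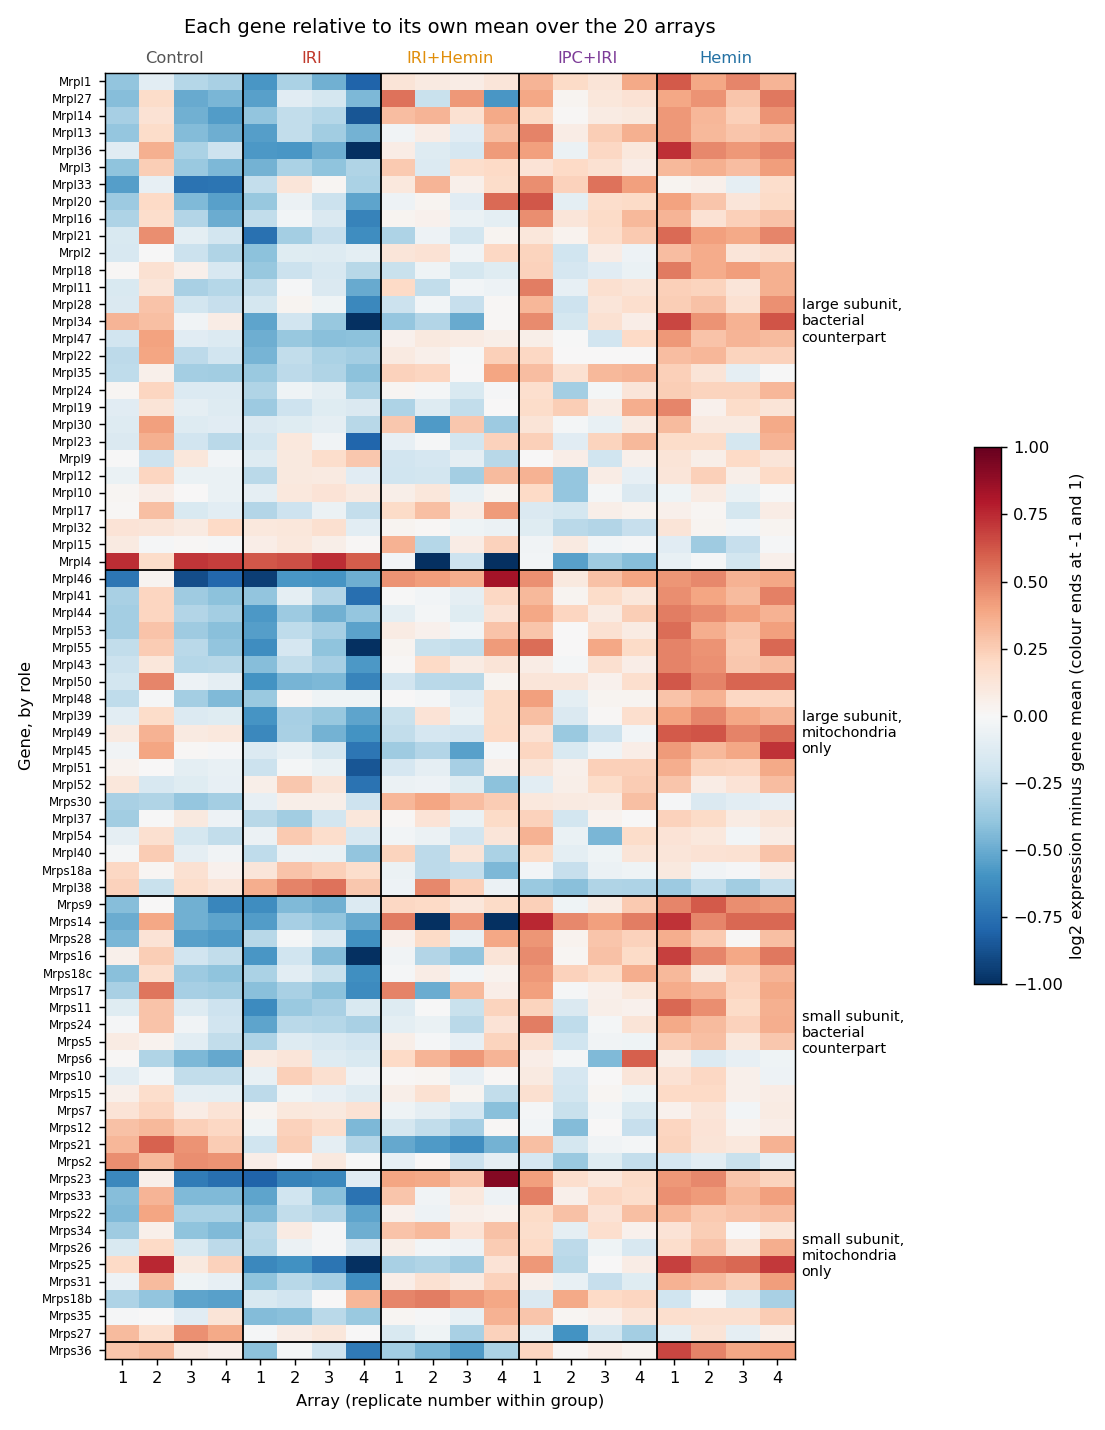
Each row is 1 of the 75 genes, grouped by subunit and by whether bacteria have a counterpart, and each column is 1 array; colour gives log2 expression minus the gene's mean over the 20 arrays. Most rows are red across the Hemin columns and blue across the IRI columns, and Control replicate 2 is red where the other Control arrays are blue.

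IRI vs Control asks what 45 min of ischemia and 6 h of reperfusion did, on arrays scanned on the same day. Of the 75 genes 17 fell and 4 rose, which is 22.7% and 5.33%, where 33.7% of all genes tested were called lower and 17.0% higher. The share that fell was thus below the background. The median change was -0.16 for the 75 genes and -0.17 for all genes, and the median absolute change was 0.21 against 0.44. The groups did not overlap in 17 genes with lower and 3 with higher values, and 31.3% and 14.8% of all genes had this. Without Control replicate 2 the counts were 14 lower and 4 higher, the median was -0.04, and 17 lower and 5 higher did not overlap, against 35.6% and 18.8% of all genes. Of 17432 genes tested in this refit and in IRI+Hemin vs Hemin, 5396 were called lower in IRI vs Control. Scaled to the probes well above background on all arrays 31 fell and 3 rose, and in the deposited log2 values all 36 called genes fell. The shares of all genes called under these settings are not given, so these counts have no background beside them.

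Among the small subunit proteins specific to mitochondria 3 of 10 fell and 1 rose, and the largest change of the 75 genes was found here. Mrps25, a protein of this group, read -0.39, 0.17, -0.49 and -0.36 in Control and -1.23, -1.19, -1.32 and -1.79 in IRI. All IRI arrays lay below all Control arrays, and Mrps25 fell by 1.12 (SE 0.17, adjusted p = 5.2e-05). With Control replicate 2 left out the change was -0.97 (adjusted p = 0.0002), and it ran from -1.30 in the deposited matrix to -0.58 (adjusted p = 0.036) with normexp. Mrps31 and Mrps35 of the same group also fell, by 0.44 (adjusted p = 0.0019) and by 0.37 (adjusted p = 0.0046), though not without scaling. In the small subunit with bacterial counterparts 4 of 16 fell and none rose at this threshold, with 1 higher at an unadjusted p under 0.05. Mrps16, the counterpart of bacterial S16, fell by 0.54 (adjusted p = 0.015) and Mrps21 by 0.49 (adjusted p = 0.0034). The Mrps16 call was lost without Control replicate 2 (change -0.45, adjusted p = 0.051), without IRI replicate 4 (-0.37, adjusted p = 0.060), without scaling and with only the arrays compared, and that of Mrps21 without scaling. Mrps2 read 0.56, 0.42, 0.55 and 0.54 in Control and 0.15, 0.09, 0.19 and 0.08 in IRI, again without overlap, and fell by 0.39 (adjusted p = 0.00078). Its 3 probes changed by -1.56, -0.64 and -0.16, and with the brightest probe alone the call was lost (change -0.16, adjusted p = 0.14), as it was without scaling (-0.27, adjusted p = 0.39).

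In the large subunit 6 of 29 members with bacterial counterparts fell and 1 rose, and 3 of 19 specific to mitochondria fell and 2 rose. Mrpl49, a mitochondria-specific protein, read 1.59, 1.85, 1.59 and 1.60 in Control and 0.85, 1.18, 1.03 and 0.90 in IRI. Mrpl50, of the same kind, read 2.41, 3.08, 2.54 and 2.51 in Control and 2.00, 2.13, 2.15 and 1.94 in IRI. Both separated the groups completely, with changes of -0.67 (SE 0.12, adjusted p = 0.00026) and -0.58 (SE 0.12, adjusted p = 0.00075). Mrpl34, the counterpart of bacterial L34, read 3.62, 3.58, 3.25 and 3.36 in Control and 2.75, 3.09, 2.90 and 2.27 in IRI and fell by 0.70 (SE 0.17, adjusted p = 0.0027). Mrpl36 fell by 0.61 (adjusted p = 0.0061). Mrps36, the dehydrogenase component, fell by 0.52 (SE 0.13, adjusted p = 0.0026), from 2.96, 3.00, 2.78 and 2.74 in Control to 2.28, 2.67, 2.48 and 1.98 in IRI. The calls of Mrpl50 and Mrps36 were lost without scaling. Leaving out Control replicate 2 gave counts higher and lower of 1 and 4 of 29 and 1 and 3 of 19 in the large subunit, and 1 and 2 of 16 and 1 and 4 of 10 in the small subunit, with and without a bacterial counterpart in each.

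The 4 members that rose after IRI were Mrpl33, Mrps18b, Mrpl38 and Mrps30. Mrps30 read 1.99, 2.14, 2.14 and 1.87 in IRI, above all Control arrays, a rise of 0.30 (SE 0.08, adjusted p = 0.0076) that was lost with normexp, without scaling and in the deposited matrix. Mrpl38 read 1.78, 1.33, 1.72 and 1.67 in Control and 1.91, 2.04, 2.09 and 1.82 in IRI, a rise of 0.34 (adjusted p = 0.028) that was 0.24 without Control replicate 2 (adjusted p = 0.10). Each comparison was refitted under 20 alternatives, 12 of processing and 8 that left out 1 array, and the Mrpl38 call was lost under 9 of them. Mrpl33, the counterpart of bacterial L33, read 2.67, 3.14, 2.49 and 2.49 in Control and 2.99, 3.35, 3.25 and 2.90 in IRI, with overlapping groups, and rose by 0.42 (adjusted p = 0.018). This call was lost under 8 of the 20 alternatives, among them leaving out Control replicate 3 or 4 or IRI replicate 2 or 3, and with the mean of log2 values over its probes the change was 0.18 (adjusted p = 0.45). Mrps18b rested on probes that moved in opposite directions and is described with the probes.

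Ischemia can also be read against Hemin arrays. In IRI+Hemin vs Hemin, which compares hemin-treated kidneys with and without surgery on 2 scan days, 28 genes fell and 3 rose, where 27.8% of all genes tested were lower and 16.4% higher. The share of members that fell was 37.3%, the median change was -0.27 against -0.15 for all genes, and 35 genes had lower values without overlap against 27.6% of all genes. Leaving out Hemin replicate 1 left 16 lower. Of 12 proximal tubule markers 5 were also lower in IRI+Hemin vs Hemin and 0 higher (0 at an unadjusted p under 0.05), with a median change of -0.35, and their part in the result was not tested. In IPC+IRI vs Hemin, within a single scan day, 12 fell (16.0%) and 3 rose (4.00%) over backgrounds of 22.7% and 13.1%, and the median was -0.17 against -0.15. This count was 5 without Hemin replicate 1 and 20 without IPC+IRI replicate 1, and without scaling all 7 called genes fell. Hemin and pre-conditioning also differ between those 2 groups. Both comparisons use the Hemin arrays and neither uses a Control or IRI array. Of the 17 genes that fell in IRI vs Control 13 (76.5%) were among the 28 that fell in IRI+Hemin vs Hemin, of which they are 46.4%, and over all genes these shares were 57.0% and 66.6%. In IPC+IRI vs Hemin 8 of the 17 (47.1%) were among the 12 that fell, of which they are 66.7%, and over all genes the shares were 50.7% and 72.9%. With Control replicate 2 left out of IRI vs Control, 9 of the 14 that fell (64.3%) were among the 28, of which they are 32.1%, against 57.4% and 63.0% over all genes, and 7 of the 14 were among the 12. The overlaps were not tested.

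Mrps36 fell by 0.91 (SE 0.13, adjusted p = 2.8e-05) in IRI+Hemin vs Hemin and by 0.40 (adjusted p = 0.019) in IPC+IRI vs Hemin. The latter call was lost without Hemin replicate 1 (-0.35, adjusted p = 0.066), with normexp and without scaling. Its arrays read 3.35, 3.18, 3.07 and 3.10 in Hemin, 2.34, 2.23, 2.12 and 2.38 in IRI+Hemin and 2.90, 2.71, 2.76 and 2.72 in IPC+IRI. The 3 groups stood in this order from high through IPC+IRI to IRI+Hemin without overlap. Mrps25 read 0.10, -0.04, -0.01 and 0.13 in Hemin, -0.91, -0.88, -0.94 and -0.45 in IRI+Hemin and -0.15, -0.86, -0.58 and -0.51 in IPC+IRI. It fell by 0.84 (adjusted p = 0.00099) and by 0.57 (adjusted p = 0.017), and the Hemin arrays lay above all arrays of these other groups. Both calls were lost with normexp (-0.49, adjusted p = 0.065, and -0.38, adjusted p = 0.20), and that in IPC+IRI vs Hemin also without IPC+IRI replicate 2 (-0.46, adjusted p = 0.067). Mrpl49 at 2.12, 2.12, 1.99 and 2.06 in Hemin stood above 1.25, 1.33, 1.31 and 1.70 in IRI+Hemin and 1.65, 1.13, 1.29 and 1.47 in IPC+IRI, with changes of -0.68 and -0.69 (adjusted p = 0.00035 and 0.00039). Mrpl45, which tethers the ribosome to the inner membrane, fell by 0.76 (adjusted p = 0.00079) in IRI+Hemin vs Hemin and by 0.44 (adjusted p = 0.034) in IPC+IRI vs Hemin, while its change in IRI vs Control was -0.37 (adjusted p = 0.058). Mrps30 rose in both, by 0.41 (adjusted p = 0.00096) and 0.23 (adjusted p = 0.041). The first of these was lost with normexp and without scaling. In IPC+IRI vs Hemin the call of Mrps30 was lost under 12 of the 20 alternatives (adjusted p up to 0.77), 5 of which left out 1 array, IPC+IRI replicate 2 or 4 or Hemin replicate 2, 3 or 4. That of Mrpl45 was lost under 8 (adjusted p up to 0.14), 5 of them without IPC+IRI replicate 2, 3 or 4 or Hemin replicate 1 or 4.

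**Figure D3:**
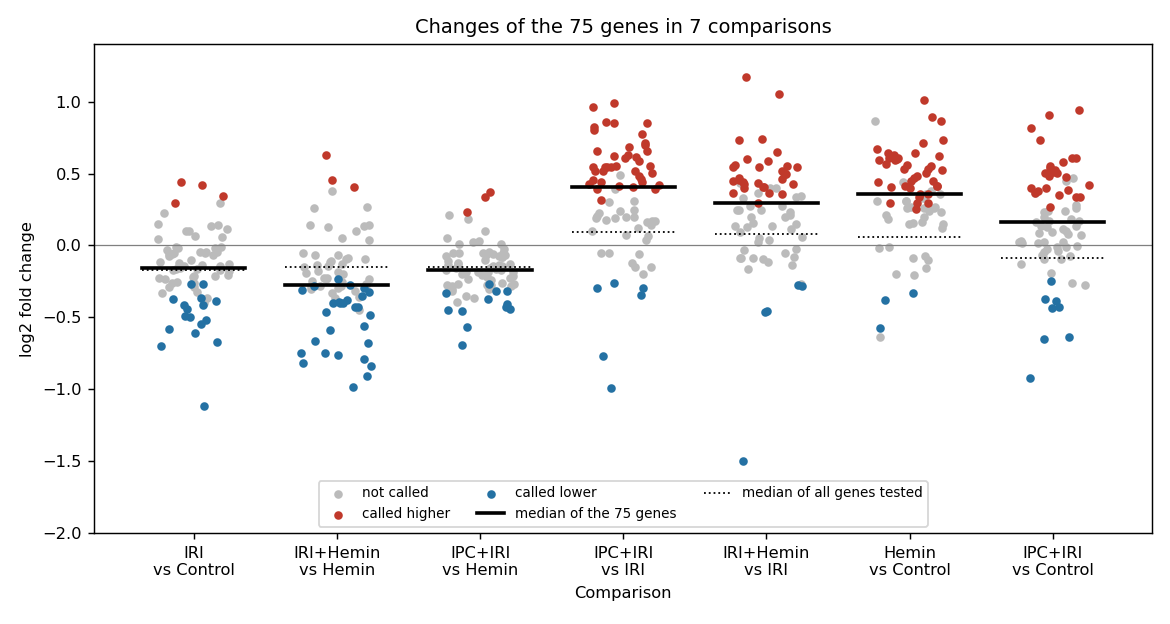
Points are the log2 fold changes of the 75 genes in the 7 comparisons, coloured by call, with the median of the 75 genes (solid line) and of all genes tested (dotted line). The medians lie at -0.27 to -0.16 in IRI vs Control, IRI+Hemin vs Hemin and IPC+IRI vs Hemin, and at 0.16 to 0.41 in the other 4.

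Hemin vs Control asks what the drug did without ischemia, on 2 scan days. Of the 75 genes 39 rose and 3 fell, 52.0% and 4.00%, where 18.4% of all genes tested were higher and 17.5% lower. The median change was 0.35 against 0.06 for all genes, and 29 genes had higher values without overlap, against 19.5% of all genes. Without Control replicate 2 the counts were 49 and 4, the median was 0.45 and 56 genes were higher without overlap, against 31.4% of all genes, and without Control replicate 4 in place of it 24 rose. Over all genes the share higher without overlap rose too, from 19.5% to 31.4%. The share of all genes called in these refits is not given, so the change from 39 is not read as a result about the members. After quantile normalization 32 rose and 8 fell, and scaled to the probes well above background on all arrays 29 rose and 7 fell. By role, 16 of 29 large subunit members with bacterial counterparts rose and none fell at this threshold, with 1 lower at an unadjusted p under 0.05, and 11 of 19 mitochondria-specific large subunit members rose and 1 fell. In the small subunit 6 of 16 with and 6 of 10 without bacterial counterparts rose and 1 of each kind fell. With Control replicate 2 left out, by role the numbers that rose were 19 of 29, 12 of 19, 10 of 16 and 7 of 10 in the same order, and 1 of each kind fell.

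Mrpl46, a mitochondria-specific large subunit protein whose gene starts head to head with Mrps11, read 0.79, 1.54, 0.62 and 0.72 in Control and 1.95, 1.99, 1.86 and 1.90 in Hemin. It rose by 1.01 (SE 0.17, adjusted p = 0.00037), or 2.01-fold, and by 1.22 without Control replicate 2. Its neighbour Mrps11 at 0.39, 0.80, 0.39 and 0.31 in Control and 1.09, 0.98, 0.71 and 0.87 in Hemin overlapped and rose by 0.44 (adjusted p = 0.019), a call lost without Control replicate 3 or 4 or Hemin replicate 1 and with scaling to bright probes (adjusted p up to 0.065). Mrps9, uS9 of the small subunit, read 0.28, 0.71, 0.23 and 0.06 in Control and 1.20, 1.33, 1.18 and 1.15 in Hemin, with no overlap. Mrps9 rose by 0.89 (SE 0.13, adjusted p = 0.00014). Mrps23, of the small subunit and specific to mitochondria, read 0.67, 1.36, 0.61 and 0.56 in Control and 1.75, 1.79, 1.59 and 1.53 in Hemin and rose by 0.86 (adjusted p = 0.0018).

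Mrpl44, a large subunit protein with a ribonuclease III type fold, read 1.29, 1.85, 1.34 and 1.29 in Control and 2.15, 2.11, 2.04 and 1.98 in Hemin. Mrps22, of the small subunit, read 1.22, 2.05, 1.34 and 1.34 in Control and 1.99, 1.92, 1.94 and 1.96 in Hemin. Both rose, by 0.63 (adjusted p = 0.00083) and 0.47 (adjusted p = 0.013). The Mrps22 groups overlapped through Control replicate 2, which was the highest of these 8 arrays, and the change without it was 0.65 (adjusted p = 2.5e-05). The Mrps22 call was lost without Control replicate 1 (0.38, adjusted p = 0.051) and with only the arrays compared. Mrpl53, of the large subunit and specific to mitochondria, is named for its promoter with a pair of ETS matches. It read 3.18, 3.80, 3.16 and 3.10 in Control and 4.08, 3.88, 3.79 and 3.93 in Hemin, with overlap, and rose by 0.61 (adjusted p = 0.0027). Mrpl12, of the stalk that recruits translation factors, did not pass the test in Hemin vs Control, at 4.99, 5.27, 4.99 and 4.99 in Control and 5.17, 5.30, 5.12 and 5.26 in Hemin (change 0.15, adjusted p = 0.47), nor did its stalk partner Mrpl10 (change -0.01, adjusted p = 0.93). The other partner, Mrpl11, rose by 0.40 (adjusted p = 0.036), a call lost under 9 of the 20 alternatives (adjusted p up to 0.11), among them leaving out Control replicate 1, 3 or 4 or Hemin replicate 1, 2 or 4. Differences between the 3 genes were not tested.

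The 3 genes that fell were Mrps2, Mrpl38 and Mrps27. Mrps2, the counterpart of bacterial S2, at -0.08, -0.02, -0.13 and 0.00 in Hemin lay below all Control arrays and fell by 0.57 (SE 0.08, adjusted p = 0.00014). Mrpl38 read 1.19, 1.30, 1.20 and 1.31 in Hemin and fell by 0.38 (adjusted p = 0.024). Mrps27, a pentatricopeptide repeat protein of the small subunit, read -0.15, -0.30, -0.01 and -0.09 in Control and -0.56, -0.34, -0.56 and -0.42 in Hemin and fell by 0.33 (adjusted p = 0.043). The Mrps27 call was lost under 11 of the 20 alternatives, 6 of which left out 1 array (Control replicate 1, 3 or 4 or Hemin replicate 1, 3 or 4), and the Mrpl38 call under 8, 5 of them without Control replicate 1, 3 or 4 or Hemin replicate 1 or 3. Without scaling all 3 calls were lost, with changes of 0.23 for Mrps27, 0.19 for Mrpl38 and -0.01 for Mrps2.

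IPC+IRI vs IRI asks what pre-conditioning changed in injured kidneys, and IRI+Hemin vs IRI what hemin changed. They share the IRI arrays, and each sets arrays of the first scan day against later ones. In IPC+IRI vs IRI 40 genes rose and 6 fell, 53.3% and 8.0%, where 26.0% of all genes tested were higher and 17.7% lower, and the median change was 0.41 against 0.09. In IRI+Hemin vs IRI 31 rose and 5 fell, 41.3% and 6.67%, over backgrounds of 26.1% and 18.0%, and the median was 0.30 against 0.08. The groups did not overlap in 40 genes with higher values in IPC+IRI and 31 in IRI+Hemin, against 22.2% and 23.4% of all genes. Without scaling all 47 called genes rose in the pre-conditioned comparison and 48 rose and 1 fell in the hemin comparison. The medians of all genes also moved up without scaling, and the shares of all genes called there are not given. By role, IPC+IRI vs IRI had 15 of 29, 10 of 19, 8 of 16 and 6 of 10 higher in the order large with and without, then small with and without a bacterial counterpart. For IRI+Hemin vs IRI the same order gave 11, 10, 2 and 8, with 8 of 10 mitochondria-specific small subunit genes and 2 of 16 of those with a counterpart. At an unadjusted p under 0.05 these were 8 of 10 and 8 of 16, with median changes of 0.45 and 0.26, and the difference was not tested.

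Mrpl46 was again among the largest. Its arrays read 0.57, 0.92, 0.92 and 1.02 in IRI, 1.96, 1.93, 1.87 and 2.34 in IRI+Hemin and 1.96, 1.61, 1.80 and 1.90 in IPC+IRI. All treated arrays lay above all IRI arrays, and Mrpl46 rose by 1.17 (SE 0.17, adjusted p = 5.1e-05) in IRI+Hemin vs IRI and by 0.96 (adjusted p = 0.00027) in IPC+IRI vs IRI. Mrps23 read 0.51, 0.64, 0.67 and 1.20 in IRI, 1.71, 1.70, 1.60 and 2.23 in IRI+Hemin and 1.72, 1.48, 1.42 and 1.51 in IPC+IRI. It rose by 1.05 (adjusted p = 0.00025) and 0.77 (adjusted p = 0.0026), also without overlap. Mrpl1, uL1 of the stalk beside the tRNA exit site, read -0.62, -0.35, -0.51 and -0.84 in IRI, 0.10, 0.06, 0.04 and 0.09 in IRI+Hemin and 0.31, 0.15, 0.09 and 0.35 in IPC+IRI, and rose by 0.65 (adjusted p = 0.00016) and 0.80 (adjusted p = 2.9e-05). When log2 values were averaged over its probes the first of these was 0.26 (adjusted p = 0.064).

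Some members rose against IRI in one of the treatments at this threshold. Mrpl34 at 3.76, 3.10, 3.43 and 3.35 in IPC+IRI rose by 0.66 over IRI (adjusted p = 0.0053), and its IRI+Hemin arrays at 2.89, 2.99, 2.78 and 3.30 overlapped the IRI arrays, with a change of 0.23 (adjusted p = 0.28). Mrps16 rose by 0.82 in IPC+IRI vs IRI (adjusted p = 0.0011) and changed by 0.43 in IRI+Hemin vs IRI (adjusted p = 0.051). The difference between the treatments was not tested for these genes. Mrpl17, whose promoter holds both kinds of letters, rose by 0.45 in IRI+Hemin vs IRI (adjusted p = 0.0039, lost with the mean of log2 values and in the deposited matrix) and changed by 0.14 in IPC+IRI vs IRI (adjusted p = 0.32).

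The members that fell against IRI were few. Mrpl4, uL4 of the large subunit, read 2.81, 2.83, 2.92 and 2.79 in IRI and 2.92, 2.37, 2.90 and 2.88 in Control, against 2.15, 0.54, 1.98 and 0.68 in IRI+Hemin, 2.16, 1.64, 1.83 and 1.76 in IPC+IRI and 2.11, 2.16, 2.00 and 2.24 in Hemin. All 12 arrays of the later scan days lay below all 8 of the first day, and IRI+Hemin replicates 2 and 4 lay far below replicates 1 and 3. Mrpl4 fell by 1.50 (SE 0.28, adjusted p = 0.00037) in IRI+Hemin vs IRI and by 0.99 (adjusted p = 0.0079) in IPC+IRI vs IRI, the latter not with normexp or without scaling. Mrpl38 read 1.17, 1.13, 1.25 and 1.24 in IPC+IRI, below all IRI arrays, and fell by 0.77 (adjusted p = 0.00013, lost without scaling), while in IRI+Hemin it read 1.50, 2.03, 1.79 and 1.49 and changed by -0.26 (adjusted p = 0.091). Mrps18a fell in both, by 0.29 (adjusted p = 0.016, a call lost under 5 of the 20 alternatives, leaving out IPC+IRI replicate 2 among them) in IPC+IRI vs IRI and by 0.46 (adjusted p = 0.00081, lost without scaling and in the deposited matrix) in IRI+Hemin vs IRI.

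Mrps14 was split within IRI+Hemin. Its arrays read 1.45, 1.68, 1.61 and 1.51 in IRI, 2.53, 0.53, 2.47 and 0.93 in IRI+Hemin, 2.77, 2.49, 2.43 and 2.52 in IPC+IRI and 2.74, 2.50, 2.58 and 2.58 in Hemin. IRI+Hemin replicates 1 and 3 lay with IPC+IRI and Hemin, and replicates 2 and 4 lay below every IRI array. Its change was 0.05 in IRI+Hemin vs IRI (SE 0.34, adjusted p = 0.92) and 0.99 in IPC+IRI vs IRI (adjusted p = 0.025). The latter call was lost without IRI replicate 1 (adjusted p = 0.055), without IPC+IRI replicate 1 (adjusted p = 0.061) and with normexp.

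**Figure D4:**
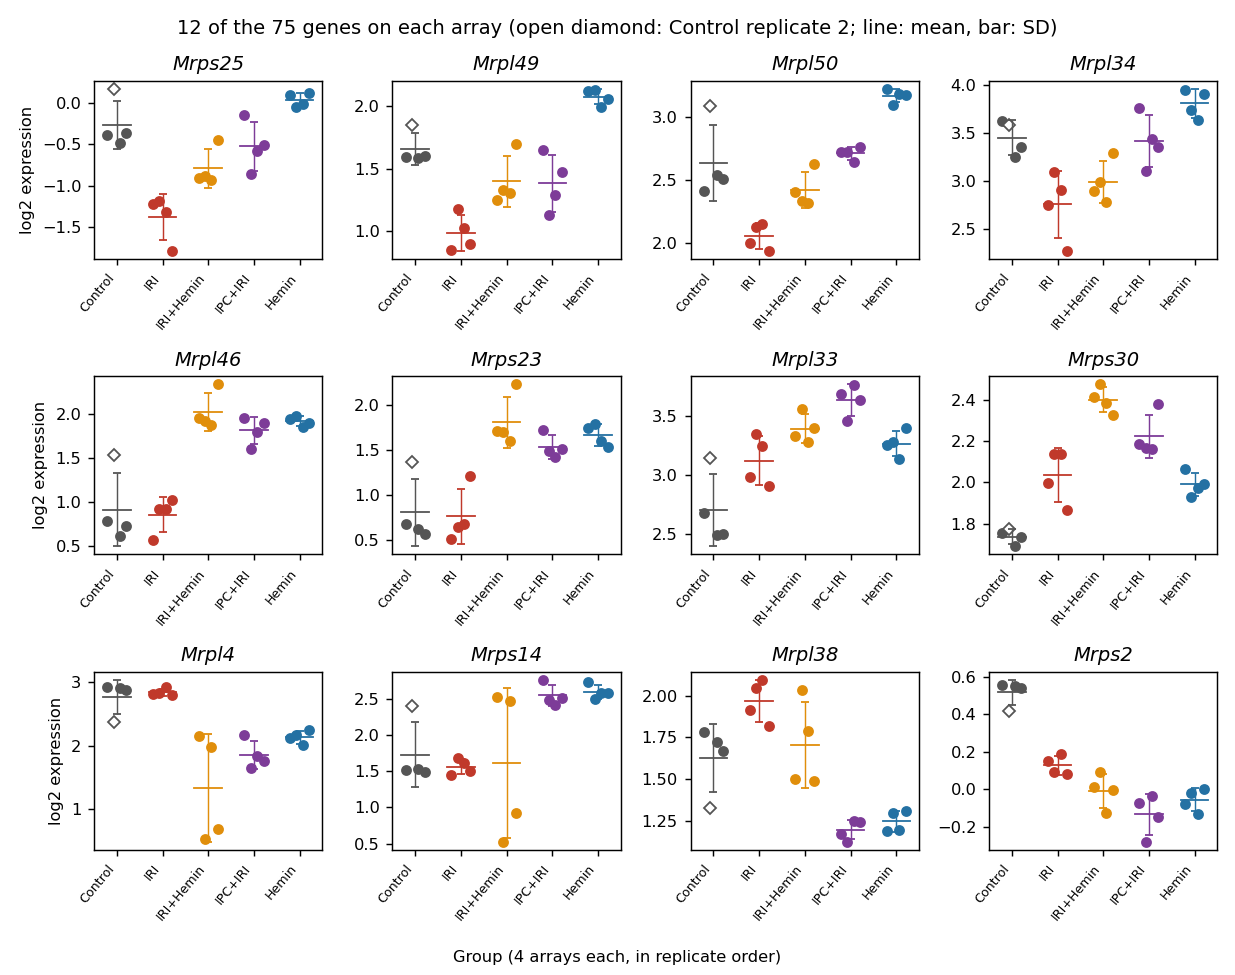
Log2 expression of 12 of the 75 genes on each array by group, with the group mean (line) and SD (bar) and Control replicate 2 as an open diamond. Mrps25, Mrpl49, Mrpl50 and Mrpl34 are lowest in IRI, Mrpl46 and Mrps23 lie low in Control and IRI and high in the other groups, and IRI+Hemin splits in Mrpl4 and Mrps14.

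IPC+IRI vs Control compares pre-conditioned injured kidneys with Control kidneys, on 2 scan days. Here 25 genes rose and 8 fell, 33.3% and 10.7%, where 23.1% of all genes tested were higher and 32.6% lower. The groups did not overlap in 10 genes with higher and 8 with lower values, against 17.7% and 27.4% of all genes. The median was 0.16 against -0.09 for all genes. Of 12 proximal tubule markers 1 was higher and 5 lower without Control replicate 2, with a median change of -0.39, and their part in the result was not tested. Without Control replicate 2 the counts were 32 and 7, and 36 genes were higher and 8 lower without overlap, against 26.2% and 32.3% of all genes. Without Control replicate 3 in place of it 13 rose. Shares of all genes called in these refits are not given. The split moved with the scaling: after quantile normalization 13 rose and 14 fell, and with scaling to the probes well above background on all arrays 15 rose and 12 fell, while without scaling all 46 called genes rose. Without scaling the median of all genes also moved up, as given with the processing. Shares of all genes called under these settings are not given.

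With all arrays Mrpl33 had the largest change in IPC+IRI vs Control. At 3.69, 3.46, 3.77 and 3.64 in IPC+IRI it lay above all Control arrays and rose by 0.94 (SE 0.14, adjusted p = 2.9e-05), or 1.92-fold. Without Control replicate 2 its change of 1.09 stood below 1.11 for Mrpl46, and with the mean of log2 values over its probes it was 0.21 (adjusted p = 0.36). Mrps30 read 2.18, 2.16, 2.16 and 2.38 in IPC+IRI, without overlap with Control, and rose by 0.48 (adjusted p = 0.00013). Among those that fell, Mrps2 read -0.08, -0.28, -0.04 and -0.15 in IPC+IRI and fell by 0.65 (SE 0.08, adjusted p = 5.8e-06), Mrps27 fell by 0.63 (adjusted p = 0.00034), and Mrpl32, a large subunit protein that the m-AAA protease must process before it is assembled, fell by 0.37 (adjusted p = 0.00091). Mrps12, of the decoding centre, fell by 0.44 (adjusted p = 0.011). Without scaling none of these 4 genes was called.

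The interaction of hemin and IRI asks whether ischemia changed a gene differently in hemin-treated and untreated kidneys. Mrps2 alone of the 75 genes passed, and 5.83% of all genes tested were called higher and 1.95% lower. At an unadjusted p under 0.05 there were 2 higher and 6 lower. Mrps2 changed by -0.39 in IRI vs Control and by 0.05 in IRI+Hemin vs Hemin, with an interaction of 0.44 (SE 0.12, adjusted p = 0.027). Its IRI+Hemin arrays at 0.01, 0.09, -0.13 and -0.00 overlapped the Hemin arrays. No member passed for the interaction without the filter on dim genes, without scaling, with normexp background correction or with a replicate block, and with the brightest probe of each gene the 1 member called was lower and Mrps2 was at 0.21 (adjusted p = 0.35). The call of Mrps2 was also lost without Control replicate 1, IRI+Hemin replicate 2, Hemin replicate 1 or Hemin replicate 3, with adjusted p from 0.052 to 0.067.

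Over the 7 comparisons, which share arrays, 63 of the 75 genes (84.0%) were called in at least 1, where 87.4% of all genes tested in all 7 were. The 12 called in none are Mrpl10, Mrpl12, Mrpl15, Mrpl23, Mrpl30, Mrpl37, Mrpl40, Mrpl52, Mrpl54, Mrps6, Mrps10 and Mrps15.

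Hemin and IPC+IRI against Control, and both treated groups against IRI, each set arrays of the first scan day against arrays of later days. All 12 later arrays lay above all 8 first-day arrays in 3 of the 75 genes and below in 1, against 1.67% and 2.46% of all genes. Leaving out Control replicate 2, 16 genes were above and 1 below, against 5.39% and 4.60%. The 16 genes were counted with Control replicate 2 left out. By construction, in the 13 not among the 3 it lay at or above the lowest of the 12 later arrays. It thus also lay above the other 7 first-day arrays there. In the 3 it lay above those 7 as well. The differences of Control replicate 2 from the other Control arrays can be set beside comparisons that use no Control array. Across the 75 genes Pearson's r was 0.81 and Spearman's rho 0.75 with IPC+IRI minus IRI, and 0.70 and 0.63 with IRI+Hemin minus IRI. Across all 19129 genes r was 0.38 and 0.41. With IRI+Hemin minus Hemin r was -0.19 and with IPC+IRI minus Hemin -0.07. Genes are not independent replicates, and the later groups share neither slide nor treatment with Control replicate 2. Scan day, slide, hemin and pre-conditioning cannot be told apart in these groups, and the part of the scan day was not tested.

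**Figure D5:**
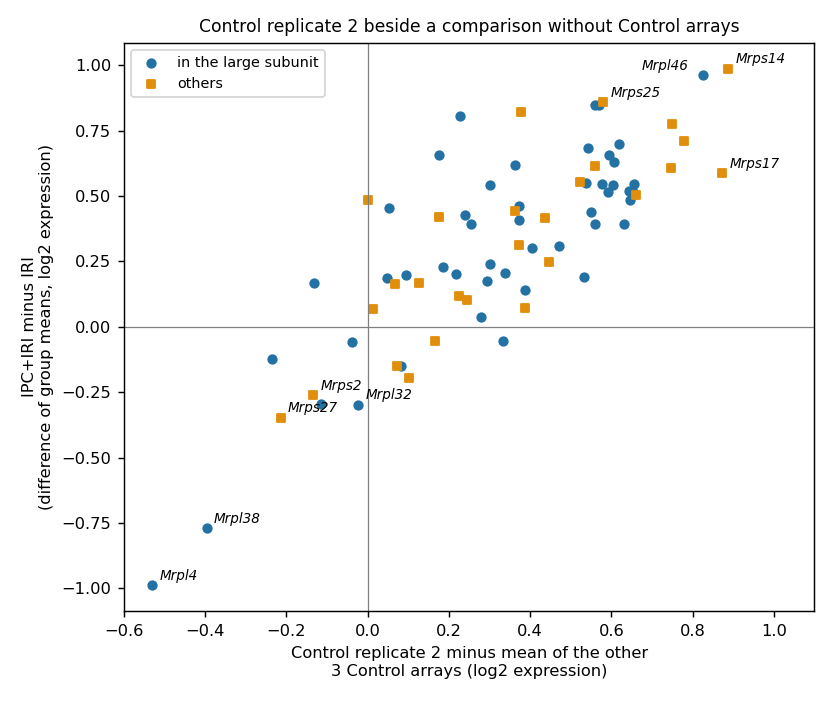
Each point is 1 of the 75 genes, with the log2 difference of Control replicate 2 from the mean of the other 3 Control arrays on the x axis and the log2 difference of the IPC+IRI and IRI group means on the y axis. The points rise together (r = 0.81), from Mrpl4 at -0.53 and -0.99 to Mrps14 at 0.89 and 0.99.

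Lars2, a nuclear gene outside the 75 for the mitochondrial leucyl-tRNA synthetase, split the arrays in the same way and was chosen after its values were seen. It read 4.01, 8.98, 3.97 and 3.95 in Control, 2.78, 4.03, 4.39 and 4.30 in IRI, 8.49, 8.72, 8.24 and 8.58 in IRI+Hemin, 9.05, 8.49, 8.64 and 8.63 in IPC+IRI and 8.76, 8.69, 8.67 and 8.78 in Hemin. Control replicate 2 lay among the 12 later arrays, and the other 7 first-day arrays reached at most 4.39, where the lowest later array read 8.24.

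Some members were measured by probes that did not move together. Mrps18b, 1 of 3 paralogs of bacterial S18, had 3 probes on chromosome 17 of build mm9. The probe at 36051313 to 36051461, for the reference transcript, changed by 0.86 in IRI vs Control, and the probe at 36047384 to 36047443, for another cDNA, by -1.26. The gene's change was 0.44 (adjusted p = 0.007) with probes averaged on the linear scale and -0.29 with a mean of log2 values. The call was also lost in the deposited matrix (0.39, adjusted p = 0.16), without scaling (0.56, adjusted p = 0.14) and with normexp (0.29, adjusted p = 0.15). Mrpl52 likewise had a probe that changed by 2.74 in IPC+IRI vs Control at 55046463 to 55046522 on chromosome 14, beside 0.10 at 55048507 to 55048566, and the gene as a whole was not called. For Mrps25 the probe at 92124124 to 92124183 on chromosome 6 changed by -1.22 and the probe at 92120277 to 92120336 by -0.45 in IRI vs Control, in the same direction, but by -1.03 and 0.24 in IRI+Hemin vs Hemin. Mrpl1 and Mrpl3 each had a probe with a fall of over 1 log2 unit in IPC+IRI vs Control, -1.06 and -1.11, beside probes that rose. Which transcripts these probes detect was not tested.

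Other genes of mitochondrial translation are given from fixed lists, as genes higher and lower of those tested. Mitochondrial ribosomal proteins under other names, such as Ptcd3 of the small subunit, had 0 and 1 of 7 in IRI vs Control (none higher at an unadjusted p under 0.05) and 4 higher in Hemin vs Control, with none lower at an unadjusted p under 0.05. The 1 lower was Ptcd3 at -0.24, a call lost under 12 of the 20 alternatives, and without Control replicate 2 none of the 7 was lower, also at an unadjusted p under 0.05. Translation factors, which start, elongate and end the chain, had 0 higher and 7 lower of 12 in IRI vs Control, 0 and 8 in IRI+Hemin vs Hemin and 0 and 6 in IPC+IRI vs Hemin, with medians of -0.33, -0.40 and -0.28, and no factor was higher at an unadjusted p under 0.05 in these 3. In Hemin vs Control and in IRI+Hemin vs IRI 7 of 12 rose and none fell, also at an unadjusted p under 0.05. Mtif2, the initiation factor that brings the first tRNA, read 0.23, 0.23, 0.13 and 0.13 in Control and -0.70, -0.25, -0.39 and -0.60 in IRI. Mtrf1, of the release factor family, read 0.32, 0.37, 0.04 and 0.08 in Control, fell by 0.70 in IRI, though not without scaling (-0.58, adjusted p = 0.12) or with normexp (-0.52, adjusted p = 0.070), and read 0.29, -0.43, 0.23 and -0.37 in IRI+Hemin, where replicates 2 and 4 lay below 1 and 3.

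Assembly and rRNA modification factors had 1 higher and 8 lower of 17 in IRI vs Control and 7 and 3 in Hemin vs Control. Tfb1m, the methyltransferase of the small subunit rRNA, read -0.75, -0.68, -1.23 and -0.98 in Control and -2.04, -2.05, -2.15 and -2.34 in IRI, a fall of 1.24 without overlap, which lost its call under 6 of the 20 alternatives, among them leaving out Control replicate 1 or 2 or IRI replicate 4 (adjusted p up to 0.15 over the 6). Its IRI+Hemin arrays read -0.70, -3.92, -1.15 and -2.51, again with replicates 2 and 4 below 1 and 3. The tRNA synthetases had 2 higher and 6 lower of 19 in IRI vs Control, with Gars, which serves cytosol and mitochondria, rising by 0.84 and Pars2 falling by 0.97 (with normexp -0.41, adjusted p = 0.054), and 3 higher and 2 lower in Hemin vs Control. Genes of mitochondrial DNA replication and transcription had 0 higher and 2 lower of 7 in IRI vs Control, none higher at an unadjusted p under 0.05, where Peo1, the helicase, fell by 0.85 (with normexp -0.34, adjusted p = 0.16). Of 10 transcriptional regulators linked to mitochondrial biogenesis 4 rose and 3 fell: Myc, at -0.26, -1.86, -1.28 and -1.29 in Control and 2.62, 3.10, 2.98 and 2.79 in IRI, rose by 4.05, and Ppargc1a, the coactivator PGC-1α, fell by 0.86. The counts higher and lower in IRI vs Control after leaving out Control replicate 2 were 0 and 6 for the translation factors, 1 and 6 for assembly, 2 and 5 for the synthetases, 0 and 4 for replication and transcription and 4 and 2 for the regulators. In Hemin vs Control they then were 4 and 0 for the proteins under other names, 7 and 0 for the translation factors, 7 and 3 for assembly and 4 and 2 for the synthetases. Where a count here was 0 it was also 0 at an unadjusted p under 0.05.

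The cytosolic ribosomal proteins and the respiratory chain subunits are the gene groups closest to the 75. In IRI vs Control 5 of 77 cytosolic ribosomal proteins rose and 2 fell, and 0 of 76 respiratory chain subunits rose (none at an unadjusted p under 0.05) and 2 fell. In Hemin vs Control the counts were 43 and 1 of 77, and 17 and 2 of 76. Leaving out Control replicate 2 these were 13 and 0 of 77 (1 lower at an unadjusted p under 0.05) and 0 and 2 of 76 (none higher) in IRI vs Control, and 50 and 2 of 77 and 29 and 2 of 76 in Hemin vs Control. In IPC+IRI vs IRI 48 of 77 cytosolic ribosomal proteins and 34 of 76 respiratory chain subunits rose, beside 40 of the 75. In IRI+Hemin vs IRI 41 of 77 and 19 of 77 rose, beside 31 of the 75. In IPC+IRI vs Control 55 of 77 and 20 of 76 rose, beside 25 of the 75, and without Control replicate 2 these were 58, 30 and 32. IRI+Hemin vs Hemin gave 6 and 3 of 77 for the cytosolic ribosome, with a median of 0.11, and 0 and 16 of 77 for the respiratory chain (none higher at an unadjusted p under 0.05), with a median of -0.19, beside -0.27 for the mitochondrial ribosome. IPC+IRI vs Hemin gave medians of 0.14, -0.02 and -0.17 in the same order. Differences between these groups of genes were not tested. Transcripts made from mitochondrial DNA, represented by CYTB and COX2, passed the test once in the 7 comparisons, with COX2 at 0.66 in IRI+Hemin vs IRI. COX2 read 6.89, 6.87, 7.08 and 6.52 in IRI and 7.14, 7.58, 6.91 and 8.36 in IRI+Hemin, which overlapped, and replicates 2 and 4 were the highest. The call was lost without IRI+Hemin replicate 4 (change 0.37, adjusted p = 0.12), IRI+Hemin replicate 2 (0.63, adjusted p = 0.064), IRI replicate 2 (0.67, adjusted p = 0.051) or IRI replicate 4 (0.55, adjusted p = 0.090), and with only the arrays compared.

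Genes known to respond to injury and to heme were read for reference. Hmox1, heme oxygenase 1, rose by 4.67 in IRI vs Control and did not pass in Hemin vs Control at 0.56, with Control arrays at 0.96, 2.14, 1.18 and 1.18 and Hemin arrays at 1.69, 1.91, 2.20 and 1.93. Control replicate 2 lay inside the Hemin range for this gene. Lcn2, a tubular injury marker, rose by 5.06 in IRI vs Control, and Havcr1 changed by 0.79 without passing. All IRI arrays of Havcr1, at 1.26, 1.12, 1.49 and 1.51, lay above the Control arrays at 0.66, 0.51, 0.50 and 0.53. Its SD was 0.07 in Control and 0.19 in IRI, against 0.40 to 0.86 in the other groups, and the fit pools all groups.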

How the data were processed

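Total kidney RNA was labelled with Cy3 and hybridised to Agilent 1-colour arrays, 20 in all. Per the labels the scanner files came from Agilent Feature Extraction 9.5.3.1, and their deposited values are processed intensities, background-subtracted by the authors' software. The authors also deposited a log2 matrix, in which 18.1% of values are blank and all single-spot values matched log2 of the processed intensity within 0.001; it served as an alternative. Of 43379 non-control spots on 41174 probes, uneven and outlier spots were removed, between 0.122% and 0.38% per array. The processed intensity was divided by the 75th percentile of the array, probes of a gene name were averaged and log2 was taken.

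A gene was tested where at least 3 of 4 arrays of either group were well above background and at most 1 value was missing. A limma model (version 3.58.1, run in R 4.3.3) with 5 group means took in all 20 arrays (15 residual degrees of freedom) with Benjamini-Hochberg adjustment per comparison over all tested genes, and a call is an adjusted p under 0.05. The script was tested on simulated data. The 5 comparisons of the study were made and 2 against Hemin added. An exact permutation test of 4 against 4 arrays can reach no p below 0.0286. The members, the gene lists and the named genes were chosen with earlier results of these data known. Named genes are the leaders by size of change among called genes per comparison, members of known role, members with disagreeing probes, the leaders of each list in IRI vs Control, the extremes of spread and 3 reference genes. Replicate numbers did not pair the samples. Depth does not apply to arrays; the number of arrays limits the precision. Alternatives were normexp background correction, no scaling, quantile normalization, scaling to bright probes, the brightest probe or the mean of log2 values, the deposited matrix, other filters, only the arrays compared, a replicate block, leaving out each array and, chosen after seeing the data, only member probes well above background on all arrays. A slide block could not be fitted, since each slide held 1 group.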

Additional observations from a re-analysis of the deposited data

Results flagged for a closer look

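In groups of 4 arrays, 16 of 165 tested gene and group combinations had 1 array apart from the other 3 by more than the 95% limit of Dixon's test, where chance gives about 1 in 20 for genes not chosen by their values. These genes were named partly for their spread and their changes, so that rate is no fair reference for them. Over all 75 genes 1 array was apart in 29 (38.7%) in Control, against 9.49% of all genes, and in 1 to 4 genes in each of the other groups, where 5.57% to 6.84% of all genes were. Control replicate 2 was that array in all 29. Among the 16 combinations of the named genes it was that array in 12. It read high in Mrps23 (1.36, others 0.56 to 0.67), Mrps14 (2.40, others 1.49 to 1.53), Mrpl49 (1.85, others 1.59 to 1.60), Mrpl12 (5.27, others 4.99), Mrpl45 (2.59, others 2.16 to 2.21), Mrpl44 (1.85, others 1.29 to 1.34), Mrpl3 (2.21, others 1.51 to 1.59), Mrps22 (2.05, others 1.22 to 1.34), Mrps18c (2.08, others 1.49 to 1.55) and Mrpl41 (2.65, others 2.03 to 2.11). It read low in Mrpl4 (2.37, others 2.88 to 2.92) and Mrps2 (0.42, others 0.54 to 0.56). The other 4 arrays apart were IRI+Hemin replicate 3 for Mrps9 (0.82, others 0.90 to 0.92), IRI+Hemin replicate 4 for Mrps25 (-0.45, others -0.94 to -0.88), IPC+IRI replicate 4 for Mrps30 (2.38, others 2.16 to 2.18) and IRI replicate 4 for Mrpl45 (1.48, others 2.02 to 2.13). The causes were not tested.

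For Mrps2 the change after ischemia differed between untreated and hemin-treated kidneys as processed here, with an interaction of 0.44 in the limma fit (adjusted p = 0.027). This call was lost without the filter on dim genes, without scaling, with normexp, with the brightest probe and with a replicate block, and without Control replicate 1, IRI+Hemin replicate 2, Hemin replicate 1 or Hemin replicate 3.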

How the results depend on the processing

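Counts of called members are given as higher and lower, without the shares of all genes called under the same settings. With normexp, IRI vs Control had 0 higher, IPC+IRI vs Control 16 and 5, IPC+IRI vs IRI 1 lower, IRI+Hemin vs IRI 2 lower, Hemin vs Control 1 lower, IRI+Hemin vs Hemin 1 higher, IPC+IRI vs Hemin 0 and 7, and the interaction 0. Without scaling these were 1 and 4, 46 and 0, 0 lower, 48 and 1, 65 and 0, 0 and 13, 0 and 7, and 0, and the medians of all genes moved to 0.62 in Hemin vs Control and to 0.35 to 0.45 in the 3 others with later arrays. Quantile normalization gave 29 lower in IRI vs Control, 13 and 14 in IPC+IRI vs Control, 8 lower in Hemin vs Control, 20 lower in IPC+IRI vs Hemin and 2 for the interaction. Scaling to bright probes gave 31 lower, 15 higher, 7 lower in the first 3 of these and 2 for the interaction. The deposited matrix gave 0 and 36 in IRI vs Control, 16 higher in IPC+IRI vs Control, 2 lower in IPC+IRI vs IRI, 1 lower in IRI+Hemin vs IRI and 28 lower in IPC+IRI vs Hemin. IPC+IRI vs Hemin had 1 higher with the brightest probe or only the arrays compared and 0 with no filter or the replicate block, and the last 2 left 0 for the interaction. With only the arrays compared, with fewer residual degrees of freedom, 2 rose in IRI vs Control, 14 in IPC+IRI vs Control, while 2 fell in IPC+IRI vs IRI and 3 in IRI+Hemin vs IRI. Other causes were not tested.

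Leaving out each array in turn gave ranges, higher and lower, of 2 to 5 and 14 to 20 in IRI vs Control, 13 to 32 and 6 to 9 in IPC+IRI vs Control, 30 to 43 and 3 to 6 in IPC+IRI vs IRI, 24 to 34 and 3 to 6 in IRI+Hemin vs IRI, 24 to 49 and 1 to 4 in Hemin vs Control, 3 to 4 and 16 to 25 in IRI+Hemin vs Hemin, 0 to 2 and 5 to 20 in IPC+IRI vs Hemin, and 0 to 3 for the interaction. Samples with the same number did not deviate together (correlations from -0.33 to 0.21), so the numbers do not pair the samples; the replicate block gave 35 and 2 in Hemin vs Control.

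Of 119 called results of named genes 42 were called under all alternatives run, 53 were lost under 1 to 5 of them and 24 under 6 or more. Of these 119 results 15 changed sign, as follows, and so did 59 named results that were not called. Without scaling Mrpl38 (0.0094), Mrps21 (0.0517), Mrpl32 (0.0676) and Mrps12 (0.000989) did so in IPC+IRI vs Control, Mrps18a (0.0232), Mrps2 (0.055) and Mrpl32 (0.0187) in IPC+IRI vs IRI, and Mrpl38 (0.19) and Mrps27 (0.23) in Hemin vs Control. With the mean of log2 values Mrps18b did so in IRI vs Control (-0.29) and IRI+Hemin vs Hemin (-0.10), Mrpl38 (0.00515) and Mrpl3 (-0.0846) in IPC+IRI vs Control and Mrpl33 in IPC+IRI vs Hemin (-0.42). With normexp Mrps18b was -0.0312 in IRI+Hemin vs IRI, and in the deposited matrix Mrpl33 was -0.11 in Hemin vs Control.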

Other observations

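IRI+Hemin replicates 2 and 4 lay below replicates 1 and 3 in further members besides Mrpl4 and Mrps14, named after their values were seen. Mrpl27 read 2.97, 2.21, 2.86 and 1.85, Mrpl30 2.85, 2.01, 2.85 and 2.22, and Mrpl40 2.25, 1.77, 2.16 and 1.71 in that group. None of these genes was called in IRI+Hemin vs IRI. How many of the 75 genes split this way was not counted. The medians of the 75 genes, relative to each gene's mean, were 0.02, -0.02, -0.07 and 0.13 on IRI+Hemin replicates 1 to 4. Replicate 4 was thus the highest by this median and replicate 3 the lowest.

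Brightness moved with the level of the 75 genes within groups. In 5 of 5 groups the array with the highest 75th percentile intensity had the lowest median of the members, and in 3 of 5 the dimmest array had the highest. For all genes this held in 4 of 5 and in 2 of 5. Group medians of the 75th percentile were 200 and 199 for Control and IRI, and 283, 254 and 273 for IRI+Hemin, IPC+IRI and Hemin. The part of brightness in the comparisons was not tested.

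Among other nuclear genes for mitochondrial gene expression, Ssbp1, the single-strand DNA binding protein of mitochondria, read 1.08, 1.87, 1.07 and 1.11 in Control, 0.45, 0.63, 0.54 and 0.39 in IRI and 1.94, 1.90, 1.85 and 1.96 in Hemin, with Control replicate 2 again near the Hemin arrays. Ngrn, an assembly factor of the mitochondrial ribosome, read 1.29, 1.38, 1.20 and 1.21 in Control, 0.64, 0.57, 0.52 and 0.31 in IRI and 1.79, 1.63, 1.75 and 1.81 in Hemin, where Control replicate 2 lay close to its group.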
